A study of Mus musculus with 13 samples.

Results

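Cirbp and Rbm3 encode the cold-inducible RNA-binding proteins CIRBP and RBM3, and they are described here in the skin of resting-phase mice over 2 days and nights. Each gene was represented by its probe set with the highest mean over all arrays among the probe sets that the platform annotation assigns to a single gene, which were probe set 10364712 for Cirbp and probe set 10556113 for Rbm3. These are 2 of the 19938 genes measured in the series, and both were among the 14953 genes tested. Whole back skin was taken from male C57Bl6 mice at postnatal day 46, in telogen, when hair follicles are at rest. The mice lived under 12 h of light and 12 h of darkness with standard chow freely available. Skin was collected every 4 h over 48 h, giving 13 collections, and each collection is 1 array of RNA pooled in equal amounts from 3 mice. ZT counts hours from lights on, so ZT14, ZT18 and ZT22 were dark (6 arrays) and ZT2, ZT6 and ZT10 were light (7 arrays). All arrays share strain, sex, age and housing, no mouse was treated, and no collection was made in constant darkness.

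CIRBP and RBM3 are small proteins with an RNA recognition motif and a glycine-rich tail, and both genes are known for rising when mammalian cells are cooled slightly below body temperature and for falling when they are warmed. They bind messenger RNAs and influence their stability, translation and choice of polyadenylation site, and in cultured fibroblasts CIRBP is needed for clock gene transcripts to oscillate with full amplitude. Mice are active at night, and their core temperature is known to be lower by day than by night. No body or skin temperature accompanies these arrays.

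The Cirbp promoter is shown because its upstream region holds the short motif through which this gene is known to answer mild cooling, the mild-cold response element TCCCCGCC. RefSeq's promoter table covered 1 of the 2 members, Cirbp, with windows of 300 bases, from 250 bases before a transcript start to 50 bases after it, at 2 start sites. The window of the first start site lies at chr10:80167589-80167888 on the plus strand of GRCm38.p6 and is written 5′ to 3′, with the element in capitals.
Cirbp: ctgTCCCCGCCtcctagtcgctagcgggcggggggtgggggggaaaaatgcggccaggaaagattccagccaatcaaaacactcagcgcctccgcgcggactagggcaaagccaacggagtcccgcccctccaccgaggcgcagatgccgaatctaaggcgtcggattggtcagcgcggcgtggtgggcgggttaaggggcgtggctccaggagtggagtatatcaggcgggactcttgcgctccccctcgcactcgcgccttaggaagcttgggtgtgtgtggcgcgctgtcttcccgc
The element starts 247 bases before the transcript start, at chr10:80167592-80167599, and no other motif searched overlaps it. The same window holds 3 GC boxes (GGGCGG, the core bound by Sp1) and 2 CCAAT boxes (CCAAT), counting both strands, and 65.7% of its bases are G or C. The window of the second start site, at chr10:80167921-80168220 on the same strand, holds 4 GC boxes and no TCCCCGCC. Neither window holds the E-box CACGTG bound by CLOCK and BMAL1, the D-box TTATGTAA, the heat shock element core GAANNTTC or the cAMP response element TGACGTCA. Over all 32851 promoter windows of the table, 5.38% hold TCCCCGCC on either strand, 35.7% hold GGGCGG, 37.4% hold CCAAT, 7.15% hold CACGTG, 0.938% hold TTATGTAA, 7.86% hold GAANNTTC and 1.79% hold TGACGTCA. Among the 6011 windows with at least 65% G and C, like both Cirbp windows, the shares were 16.4% for TCCCCGCC and 87.4% for GGGCGG, so neither motif is rare in sequence of this composition.

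Cirbp signal stood high in the light and low in the dark on both days. On the first day the intensity was 1030, 1036 and 1012 at ZT2, ZT6 and ZT10 and then 666, 758 and 847.2 at ZT14, ZT18 and ZT22. On the second day it was 1077, 1153 and 1186 at ZT2, ZT6 and ZT10 and then 741.7, 717.5 and 650.3 at ZT14, ZT18 and ZT22, and the last array, at ZT2 of the third day, gave 955.6. The 3 dark arrays of the first day ran upward towards lights on, while those of the second day ran downward, so the shape within the night did not repeat between the 2 days. The highest array was 1.82-fold above the lowest.

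Rbm3 followed a similar course, except that its 2 arrays at ZT22 lay far apart. On the first day its intensity was 5561, 5934 and 6122 at ZT2, ZT6 and ZT10, and 4506, 4194 and 5924 at ZT14, ZT18 and ZT22. On the second day it was 5089, 6119 and 6467 at ZT2, ZT6 and ZT10, and 4997, 3920 and 3945 at ZT14, ZT18 and ZT22, with 4491 at the closing ZT2. The first ZT22 array, at 5924, lay just under the lower ZT6 value of 5934, whereas the other 5 dark arrays lay between 3920 and 4997. In the light the level climbed from ZT2 through ZT6 to ZT10 on both days. The highest array was 1.65-fold above the lowest.

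**Figure D1:**
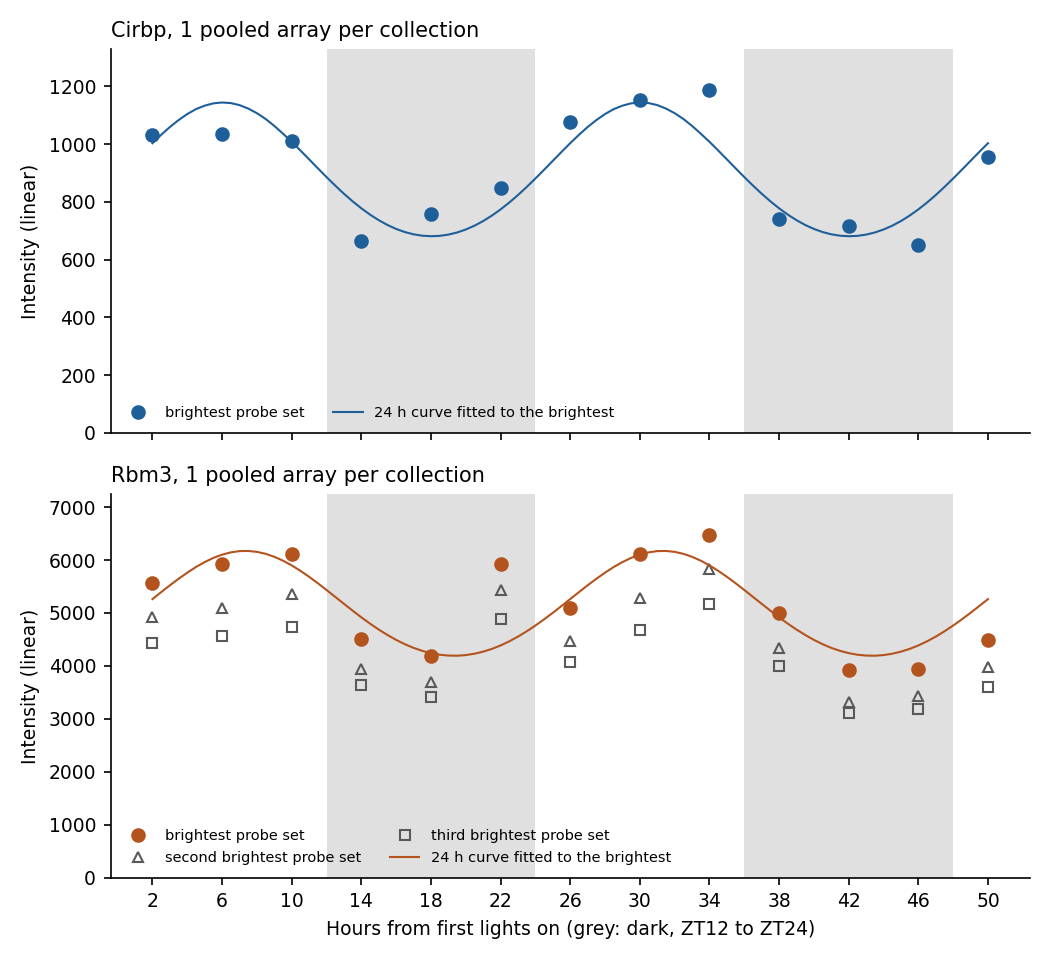
Intensity (linear axis) of Cirbp (top) and Rbm3 (bottom) against hours from the first lights on, 1 point per array, with night in grey and the fitted 24 h curve as a line; open symbols are the other 2 probe sets of Rbm3. The 6 dark Cirbp points all lie under the 7 light points, and the Rbm3 point at 22 h stands at 5924, at the height of the light arrays.

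Rbm3 had 2 further probe sets, 10358454 and 10603469, which the annotation assigns to the same gene with the same set of transcripts. Their intensities ran from 3326 to 5828 and from 3109 to 5162, beside 3920 to 6467 for the brightest. The 3 probe sets moved together, with Pearson correlations of 0.993 to 0.999 between them over the 13 arrays, so the high first ZT22 value was present in each of them. Since they are assigned to the same transcripts, their agreement is no independent evidence for the Rbm3 values. The locus on which each probe set was designed was not given. The reference gene table also lists an Rbm3 pseudogene, and whether its transcripts add to any of these probe sets was not tested. Cirbp had 1 probe set. Intensities of different probe sets depend on their probes, so the levels of Cirbp and Rbm3 are not set against each other.

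A 24 h cosine curve was fitted to log2(intensity + 16) of every gene over the 13 arrays with limma, and p-values were adjusted over all 14953 genes by the Benjamini-Hochberg method, a gene being called at an adjusted p under 0.05. Cirbp passed this test: its fitted peak-to-trough difference was 0.74 ± 0.12 in log2 (SE), or 1.67-fold, with a peak at 6.04 ± 0.60 h after lights on, the middle of the light, and a limma adjusted p of 0.016. Rbm3 had a fitted difference of 0.56 ± 0.14 (SE), or 1.47-fold, and a peak at 7.33 ± 0.87 h, but its limma adjusted p was 0.103 (unadjusted 0.00423) and it was not called. Among all genes 318 were called, 2.13% of those tested, and 2775 had an unadjusted p under 0.05. The median fitted difference over all genes was 0.19. Cirbp was a called gene of moderate size, since 92 of the called genes had a larger peak-to-trough difference.

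Whether Rbm3 passed the test depended on the ZT22 arrays, and with 2 of them it cannot be told which one departs. Without the first ZT22 array the Rbm3 peak-to-trough difference was 0.71 in log2, with a peak at 7.85 h and a limma adjusted p of 0.00488. Without the second ZT22 array, which had the high sum of hair shaft markers given below, it was 0.51 with an adjusted p of 0.123. With both ZT22 arrays left out it was 0.70 with an adjusted p of 0.0157. Cirbp remained called without either or both of these arrays, at adjusted p-values of 0.015 to 0.0241. Leaving out both ZT22 arrays together was chosen after the values had been seen, while each array was left out in turn as planned.

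**Figure D2:**
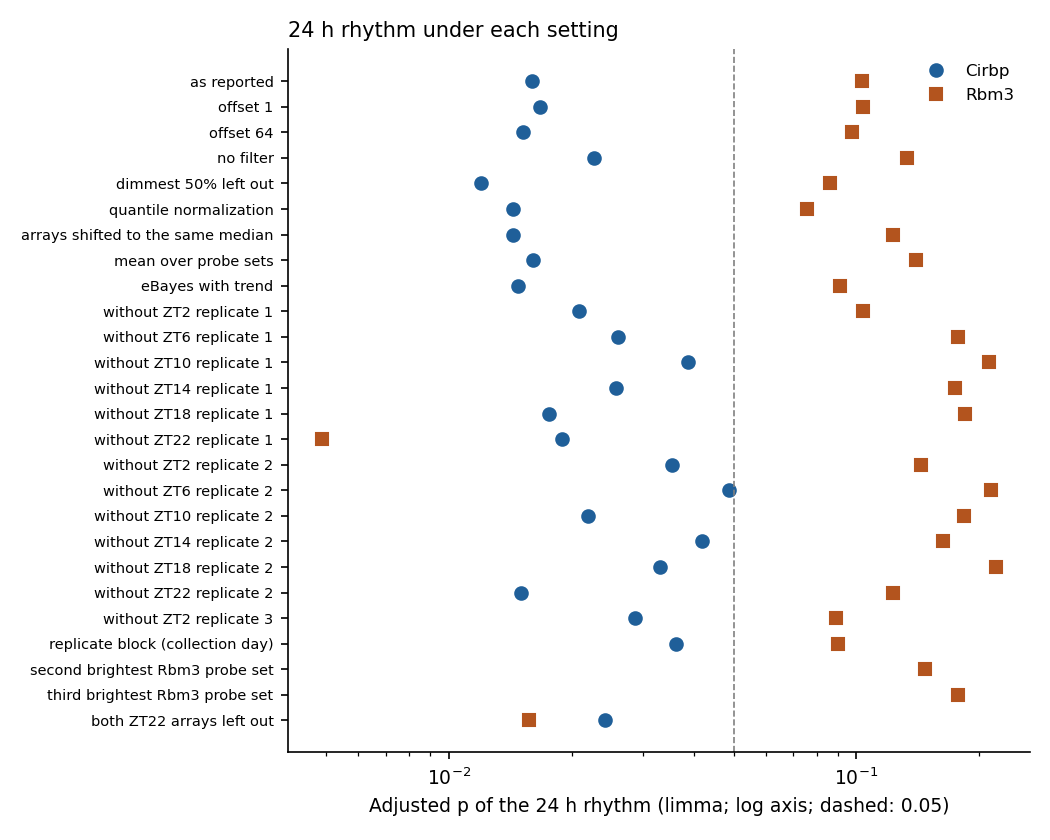
Adjusted p of the 24 h rhythm (limma, log axis) of Cirbp and Rbm3 as reported and under each alternative setting, 1 row per setting, with the 0.05 threshold dashed; the settings with another Rbm3 probe set have an Rbm3 point only. Every Cirbp point lies left of the threshold, the closest at 0.0488, and the Rbm3 points lie right of it except without the first ZT22 array (0.00488) and without both ZT22 arrays (0.0157).

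In the dark Cirbp had a lowest, median and highest intensity of 650.3, 729.6 and 847.2, against 955.6, 1036 and 1186 in the light. The means were 730.1 ± 71.1 in the dark (SD, n = 6) and 1064 ± 81.1 in the light (SD, n = 7), and the ranges did not overlap. The limma difference, dark minus light, was -0.54 ± 0.069 in log2 (SE), so that Cirbp was 1.45-fold lower in the dark, with an adjusted p of 0.0114. This was the only gene called lower in the dark (0.00669% of those tested), beside 2 genes called higher (0.0134%), 3 in all (0.0201%), while 1238 genes had an unadjusted p under 0.05. All 6 dark arrays lay below all 7 light arrays for 36 genes (0.241%), Cirbp among them. Without the second ZT18 array the Cirbp difference was -0.53 with an adjusted p of 0.052, and without any other single array it stayed under 0.05.

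Rbm3 had a lowest, median and highest intensity of 3920, 4350 and 5924 in the dark, against 4491, 5934 and 6467 in the light. The means were 4581 ± 771 in the dark (SD, n = 6) and 5683 ± 689 in the light (SD, n = 7). These ranges overlapped, since 3 of the 6 dark arrays lay above the lowest light array. The limma difference, dark minus light, was -0.32 ± 0.11 in log2 (SE), with an unadjusted p of 0.0096 and an adjusted p of 0.476, so Rbm3 was not called. Whole skin was measured, so fewer cells of a type and less RNA per cell cannot be told apart for either gene.

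By time of day, Cirbp took 2 levels. It averaged 1021 ± 61.1 at ZT2 (SD, n = 3), 1095 ± 82.4 at ZT6 and 1099 ± 123 at ZT10, and 703.9 ± 53.6 at ZT14, 737.8 ± 28.6 at ZT18 and 748.8 ± 139 at ZT22 (SD, n = 2 each). In the order ZT10, ZT6, ZT2, ZT22, ZT18, ZT14, the only neighbours whose arrays did not overlap were ZT2 and ZT22, 0.45 apart in log2, and the other neighbours lay 0.0035 to 0.099 apart. Within the light and within the dark the arrays of the times therefore overlapped. Differences among these times were not tested, and 2 or 3 arrays per time cannot exclude them.

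For Rbm3 the times did not fall into separate dark and light levels, and no difference among them was called. Rbm3 averaged 5047 ± 536 at ZT2 (SD, n = 3), 6026 ± 131 at ZT6, 6294 ± 245 at ZT10, 4752 ± 347 at ZT14, 4057 ± 193 at ZT18 and 4935 ± 1399 at ZT22 (SD, n = 2 each). In the order ZT10, ZT6, ZT2, ZT22, ZT14, ZT18, the arrays overlapped for ZT2 with ZT22 and for ZT22 with ZT14. ZT10 and ZT6 (0.062 apart in log2), ZT6 and ZT2 (0.26) and ZT14 and ZT18 (0.23) did not overlap. The lowest ZT10 array was at 6122 and the highest ZT6 array at 6119. With 2 or 3 arrays per time such gaps can arise by chance, and their share over all genes was not counted. The 2 arrays at ZT22 differed by 0.58 in log2 for Rbm3 and by 0.37 for Cirbp. A limma F test of any difference among the 6 times of day gave an adjusted p of 0.112 for Cirbp and 0.483 for Rbm3, with 44 genes called (0.294%). Without the first ZT22 array the adjusted p for Cirbp was 0.0248.

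Across lights off, Cirbp had intensities of 666 and 741.7 at ZT14, against 1012 and 1186 at ZT10. The limma difference, ZT14 minus ZT10, was -0.63 ± 0.14 in log2 (SE) for Cirbp, the 15th smallest p of all genes, with an unadjusted p of 0.000766 and an adjusted p of 0.721. Rbm3 had 4506 and 4997 at ZT14, against 6122 and 6467 at ZT10, and its difference was -0.41 ± 0.17 with an adjusted p of 0.999. No gene was called in this comparison (0% by limma, with 580 genes at an unadjusted p under 0.05). Across lights on, Cirbp had 955.6 to 1077 at ZT2, against 650.3 and 847.2 at ZT22, a difference of 0.45 ± 0.12 in log2 (SE) with a limma adjusted p of 0.489. Without the second ZT22 array this Cirbp difference was 0.26. Rbm3 had 4491 to 5561 at ZT2, against 3945 and 5924 at ZT22, with overlap, and differed by 0.056 ± 0.15 with an adjusted p of 0.965, and its sign turned when the second ZT22 array or the first ZT2 array was left out. Here 1 gene was called (0.00669%) and 1227 had an unadjusted p under 0.05.

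The fitted curve was larger on the second day for both genes, a difference that did not pass the test of day. Fitted to the 6 arrays of 1 day, Cirbp had a fitted log2 difference from peak to trough of 0.93 on the second day and 0.62 on the first, with peaks at 6.77 h and 4.68 h. Rbm3 had 0.78 on the second day and 0.47 on the first, with peaks at 8.03 h and 4.79 h, and the curve took up 99.1% of its variance on the second day and 62.7% on the first. The test of the interaction of day with the 24 h curve gave limma adjusted p-values of 0.425 for Cirbp and 0.386 for Rbm3, with no gene called (0%) and 1919 genes at an unadjusted p under 0.05. The mean level was 921 ± 243 on the second day and 891.6 ± 158 on the first for Cirbp, and 5090 ± 1062 on the second day and 5373 ± 819 on the first for Rbm3 (SD, n = 6 each). Second day minus first day was 0.024 ± 0.083 in log2 for Cirbp and -0.090 ± 0.094 for Rbm3 (SE), with limma adjusted p-values of 0.892 and 0.67, and no gene was called (0%, 976 genes at an unadjusted p under 0.05). A 12 h component beside the 24 h curve had adjusted p-values of 0.938 for Cirbp and 0.869 for Rbm3, with no gene called by limma (0%, 817 genes at an unadjusted p under 0.05).

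The dark minus light difference was larger for Cirbp than for Rbm3. Taken as the difference of the 2 genes' log2 values on each array, Cirbp minus Rbm3 had a dark minus light difference of -0.22, with a two-sided exact permutation p of 0.0233 over the 1716 ways to choose the dark arrays. This test was added after the data had been seen. The 24 h curve of the same difference, planned with the other tests, had a peak-to-trough size of 0.28 in log2 and a permutation p of 0.125, and over these 2 tests the adjusted p-values were 0.0466 for dark minus light and 0.125 for the curve. Both depended on ZT22: without both ZT22 arrays the dark minus light difference of Cirbp minus Rbm3 was -0.19 with an exact permutation p of 0.0818, and the curve had a permutation p of 0.00653.

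The Cirbp values formed separate dark and light clusters, so the 2 genes were correlated within each. These 2 tests were added after the data had been seen, in place of the planned correlation over all arrays. Over the 6 dark arrays Pearson's r between Cirbp and Rbm3 was 0.75 (exact permutation p = 0.0917) and Spearman's rho was 0.60 (p = 0.242). Over the 7 light arrays r was 0.69 (exact permutation p = 0.0863) and rho was 0.54 (p = 0.236). The adjusted p over the 2 Pearson correlations was 0.0917 for each. Without the 2 arrays farthest from the Cirbp median, which in the dark were the ZT22 arrays, r was -0.0084 over the remaining 4 dark arrays and 0.44 over the remaining 5 light arrays, given with no test since so few arrays are left. Neither correlation passed the threshold, and the positive value in the dark depended on the ZT22 arrays.

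Cirbp and Rbm3 deviated together from the mean of their time of day. At all 6 times of day the first array deviated from the mean of its time in the same direction for Cirbp and Rbm3, and the correlation of their deviations from the time-of-day means over the 13 arrays was 0.86, given as a description since paired deviations mirror each other. The median over all genes moved with these deviations, with correlations of 0.81 for Cirbp and 0.91 for Rbm3. At ZT22 the first array lay above the mean of both by 0.050 in log2 for the array median, 0.19 for Cirbp and 0.29 for Rbm3. With every array shifted to the same median the correlation of the 2 genes' deviations was 0.78, and without the ZT22 arrays it was 0.56. By the same measure on the unshifted arrays Cirbp stood 1516th among the genes closest to Rbm3. The dark minus light difference of Cirbp with arrays shifted to the same median was -0.51 with an adjusted p of 0.00932.

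**Figure D3:**
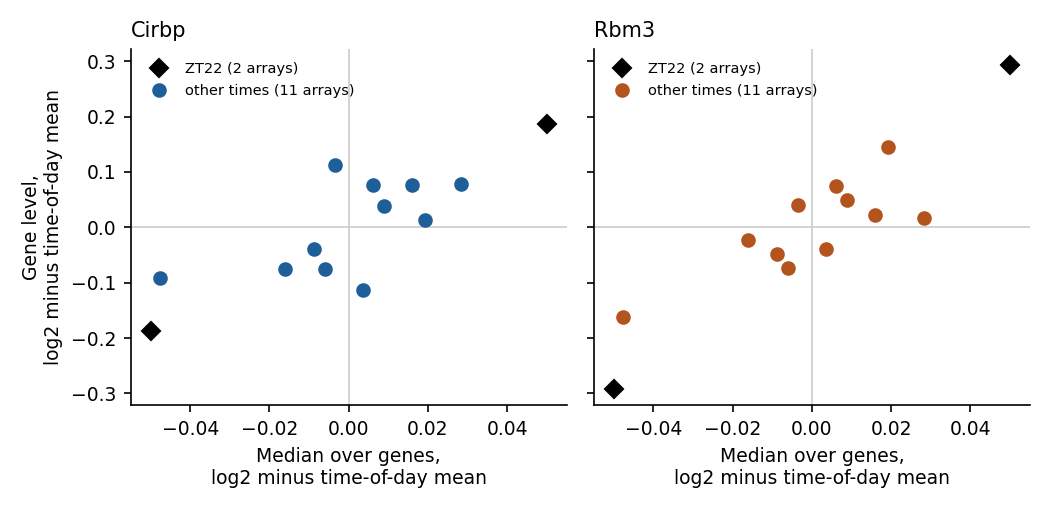
Deviation of each array from the mean of its time of day, in log2, for Cirbp (left) and Rbm3 (right) against the same deviation of the median over all genes, with ZT22 arrays as black diamonds; where a time has 2 arrays its points mirror each other. In both panels the points climb with the array median, and the ZT22 arrays lie at the ends, at 0.19 and -0.19 for Cirbp and 0.29 and -0.29 for Rbm3.

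The genes with the most similar course to each member were ranked by Pearson correlation with it over the 13 arrays, which share a library and scale and carry no test here. For Cirbp the highest were 4930412O13Rik (0.96), Zc3h6 (0.94), Rerg, a Ras-related protein (0.93), Nr2c2, a nuclear receptor (0.93), and Iars2, the mitochondrial isoleucyl-tRNA synthetase (0.93). 4930412O13Rik had lowest, median and highest intensities of 698.9, 752.6 and 779 in the dark, against 820.1, 898.5 and 965.1 in the light. It was called rhythmic with a limma adjusted p of 0.0306. Since it was picked for its likeness to Cirbp on these arrays, its split and its call are no separate evidence. The most opposite were Banp (-0.92), Aacs, which makes acetoacetyl-CoA for lipid synthesis (-0.91), Mrap, an accessory protein of the melanocortin receptors (-0.88), Thrsp, a lipogenic protein of fat and liver (-0.87), and Wdr78 (-0.85). Thrsp, picked in the same way, had 1881, 2107 and 3059 in the dark, against 754.1, 953.3 and 1735 in the light.

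For Rbm3 the highest were Zfp655 (0.96), Casp12, a caspase (0.96), Ino80, the ATPase of a chromatin remodelling complex (0.95), Rab3gap2 (0.935) and Tnfrsf11b, the decoy receptor osteoprotegerin (0.93). Casp12, picked for its likeness to Rbm3, had lowest, median and highest intensities of 469.7, 557.7 and 710.5 in the dark, against 580.3, 666.9 and 803.7 in the light, with overlap. The most opposite were Fam234b (-0.85), Dnajb2, a co-chaperone (-0.85), Cnih2 (-0.84), Notum, a secreted inhibitor of Wnt (-0.83), and Pop7 (-0.82). Rbm3 stood 114th among the genes closest to Cirbp, and Cirbp stood 222nd among those closest to Rbm3. The 2 lists of the 5 highest share no gene.

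Most heat shock genes had their fitted peak in the dark, whereas the fitted peaks of Cirbp and Rbm3 lay in the light. Peak times of genes that were not called are uncertain. Of 26 listed chaperones, co-chaperones and heat shock factors, 23 were tested and 4 were called rhythmic, all with a peak in the dark, beside 2.13% of all genes tested. An unadjusted p under 0.05 was found for 11 of the 23, against 2775 of all 14953 genes. The fitted peak lay in the light for 2 of the 23, against 8934 of all 14953 genes, and the median peak-to-trough difference was 0.28 in log2, against 0.19 over all genes. Hsph1, a large chaperone of the HSP110 family, had lowest, median and highest intensities of 945.6, 995.9 and 1122 in the dark, against 530.3, 652.4 and 908.6 in the light, without overlap. All 6 dark arrays lay above all 7 light arrays for 18 genes (0.12%), Hsph1 and the uncalled Hspa8 of this list among them. The fitted fold of Hsph1 was 1.89 with a peak at 19.6 h and a limma adjusted p of 0.0178. Hsp90aa1, the inducible HSP90, had 2197, 2465 and 2973 in the dark, against 1474, 1975 and 2519 in the light, with overlap, and a fitted fold of 1.67, the same size as that of Cirbp, at 20.3 h with an adjusted p of 0.0114. The co-chaperones Stip1 (1.42-fold, 21.3 h, adjusted p 0.0181) and Fkbp4 (1.34-fold, 20.8 h, adjusted p 0.0272) were the other called genes by limma. In dark minus light, 7 of the 23 had an unadjusted p under 0.05, against 1238 of all 14953 genes, and none was called by limma (0.0201% of all genes were). The median dark minus light difference of the list was 0.14, against -0.023 over all genes.

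**Figure D4:**
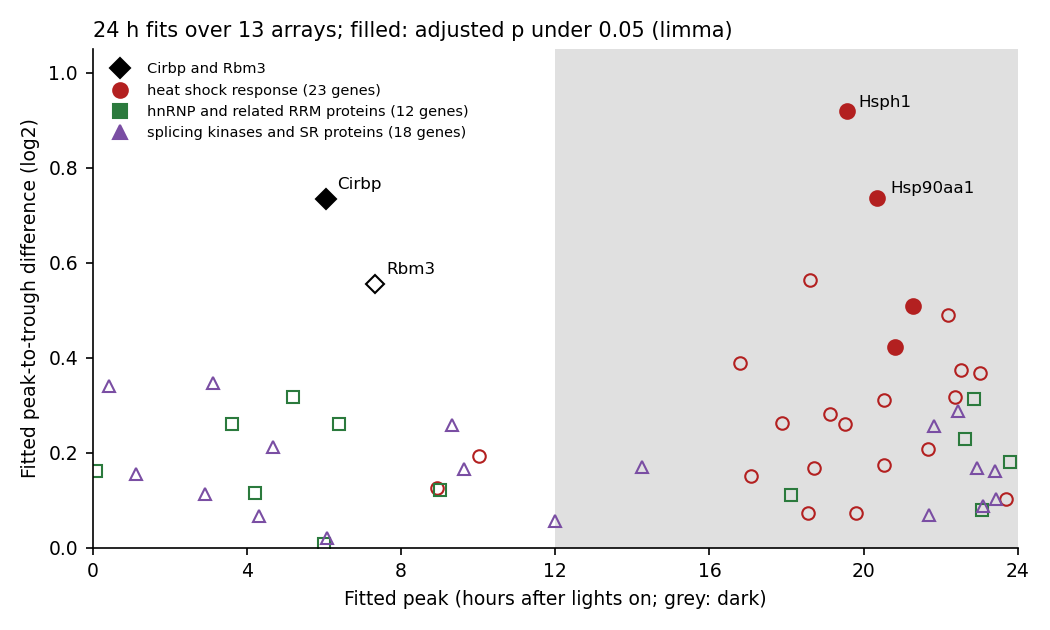
Fitted peak time (hours after lights on, night in grey) against fitted peak-to-trough difference (log2) of the 24 h curve for Cirbp and Rbm3 and for the tested genes of 3 lists; filled symbols passed an adjusted p under 0.05. Cirbp (6.04 h) and Rbm3 (7.33 h) stand above the RNA-binding and splicing genes, and the 4 filled heat shock genes lie between 19.6 and 21.3 h.

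Related RNA-binding proteins were listed beside the 2 members. Of 18 listed glycine-rich and hnRNP proteins with RNA recognition motifs, 12 were tested, with a median peak-to-trough difference of 0.17 in log2, against 0.19 over all genes. None was called by limma and 1 had an unadjusted p under 0.05, against 2.13% called and 2775 of 14953 genes at that p, so a count of 0 among 12 is near what all genes gave. The smallest adjusted p was that of Hnrnpab (0.258, fitted peak 22.9 h), followed by Rbmx (0.282, fitted peak 5.19 h), a relative of CIRBP and RBM3 in sequence. Rbmx had 640.5, 817.7 and 993.9 in the dark, against 819.6, 914.8 and 1049 in the light, and these ranges overlapped. Hnrnpdl and Hnrnpa2b1 had adjusted p-values of 0.302 and 0.39.

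The splicing kinases of the CLK, SRPK and DYRK families and the SR proteins they phosphorylate, several of which are known to respond to body temperature, were listed as well. Of 21 listed, 18 were tested, none was called by limma (2.13% of all genes were) and 1 had an unadjusted p under 0.05. A count of 0 among 18 is again near the share over all genes. The median peak-to-trough difference was 0.16 in log2. Srsf9 had the smallest adjusted p, 0.154, with a fitted peak at 0.413 h, followed by Srsf5 (0.304, 3.13 h), Hnrnph1 (0.326, 22.4 h) and Srsf2 (0.382, 9.63 h).

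Among 15 listed partners and reported targets of CIRBP and RBM3, 13 were tested, 1 was called (2.13% of all genes were) and 3 had an unadjusted p under 0.05, a share near that of all genes (2775 of 14953). The called gene was Clock, whose transcript CIRBP is reported to bind, with a fitted fold of 1.61, a peak at 22.3 h and a limma adjusted p of 0.00261. Tlr4, an innate immune receptor that extracellular CIRBP binds, had a log2 difference from peak to trough of 0.44 with a fitted peak at 7.62 h and an adjusted p of 0.166. The polyadenylation factors Cstf2 and Cpsf6 had adjusted p-values of 0.224 and 0.364.

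Against the clock genes of the same arrays, all called by limma, the fitted Cirbp peak at 6.04 h (SE 0.60 h) came 1.5 h before that of Nr1d1, a repressor of the clock loop (7.54 h), and 3.84 h before that of Dbp, a clock output factor (9.88 h). Fitted by day, the Cirbp peak was at 4.68 h on the first day and 6.77 h on the second. Cirbp levels within the light did not differ beyond their spread, so its peak time is approximate. The fitted Rbm3 peak came 0.207 h before that of Nr1d1, within its SE of 0.87 h. Arntl, which encodes BMAL1, and Clock peaked at 22.2 and 22.3 h, Per2 at 13.1 h and Cry1 at 17.8 h. The Cirbp fold of 1.67 was small beside 8.52 for Nr1d1 and 20.8 for Dbp, and close to the 1.61 of Clock.

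Marker genes were checked for the tissue and for other cells. The 11 measured keratinocyte markers summed to intensities of 88480 to 96700 in the dark and 90130 to 96400 in the light, and 7 fibroblast markers to 70600 to 76870 in the dark and 55910 to 78680 in the light, so the markers of skin were bright on every array. The 10 measured markers of the hair shaft, a growing-follicle structure, summed to 35260 on the second ZT22 array, which had the lowest Cirbp value, and to 3351 to 5056 on the other 12. Liver markers summed to 9670 to 69000 in the dark and 16350 to 76190 in the light, and exocrine pancreas markers to 5559 on the first ZT2 array, against 1585 to 2253 elsewhere. Without the second ZT22 array dark minus light was -0.50 for Cirbp (limma adjusted p 0.0298), and without the first ZT2 array it was -0.54 (adjusted p 0.0251). For Rbm3 it was -0.28 (limma adjusted p 0.949) without the second ZT22 array and -0.32 (adjusted p 0.357) without the first ZT2 array. The 10 skeletal muscle markers come from the muscle layer under the skin. They summed to 64490 to 88410 in the dark and 76270 to 95220 in the light. All 10 were lower in the dark, none of them called by limma, beside 8946 of all 14953 genes lower. Their median dark minus light difference was -0.15 in log2, against -0.023 over all genes, and their part in the Cirbp difference was not tested. All 7 endothelial and all 8 liver markers were lower in the dark as well.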

How the data were processed

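Whole back skin was measured on Affymetrix whole-transcript arrays, 13 in all, each a separate pool of RNA from 3 mice, per the labels. Each deposited value is the intensity of a probe set on a linear scale, made, per the submitters' processing notes, with PLIER 2.0 and Affymetrix Expression Console 1.1.1. The normalization across arrays and the genome build were not given in the sources used here. Intensities as the authors deposited them had array medians of 353.8 to 392.8. Precision is limited by how few arrays there are, and no pair of arrays was identical.

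Of 35557 probe sets, 21789 have 1 gene in the platform annotation, 1621 several and 12147 none listed, and 21698 gene identifiers matched the reference gene table. Where a gene had several probe sets (999 genes), the brightest on average was kept, which left 19938 genes. Tests were run on log2(intensity + 16). The dimmest 25% of genes were left out and 14953 were tested, with no further normalization. Tests used limma 3.58.1 (lmFit and eBayes) in R 4.3.3 and permutation tests in Python 3.11.15 with numpy 2.4.6, scipy 1.17.1 and pandas 2.3.3, with 100000 permutations for the 24 h curve of the difference of the 2 genes. The scripts were tested on simulated data.

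Arrays of one time of day on successive days are the replicates. Their day did not pair them: deviations of arrays of the same day from their time-of-day means had correlations of -0.66 to 0.53, with a median of 0.00034. The members, the 8 pathway lists and the 13 marker lists were chosen with earlier results of these data known. The text names, for each member, the 5 genes with the highest and the 5 with the lowest correlation, and up to 4 genes per pathway list by p. A pooled correlation of Cirbp and Rbm3 over all arrays was planned and is not given, since the Cirbp values form separate dark and light clusters. RefSeq's promoter table (GRCm38.p6) gave the sequences, and its coordinates are those of that build, not of the array design.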

Additional observations from a re-analysis of the deposited data

How the results depend on the processing

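The 24 h rhythm of Cirbp stayed called under all 23 alternatives (log2 difference 0.6791 to 0.8025, adjusted p 0.012 to 0.0488). That of Rbm3 was 0.71 (adjusted p 0.00488) without the first ZT22 array and 0.70 (0.0157) without both, and was not called otherwise (leave-one-out range 0.5054 to 0.7097). Leave-one-out ranges were -0.579 to -0.5043 for dark minus light of Cirbp, called except without the second ZT18 array, 0.5614 to 0.7422 for its time of day, called without the first ZT22 array only, 0.2624 to 0.636 for ZT2 minus ZT22 of Cirbp, -0.236 to 0.3485 for that of Rbm3, -0.0167 to 0.103 and -0.137 to 0.0095 for second day minus first of Cirbp and Rbm3, and 0.4198 to 0.8319 for their correlation in the light, with p 0.0431 without the first ZT10 array. The 24 h curve of Cirbp minus Rbm3 ran from 0.2302 to 0.3469, with p 0.0276 without the first ZT22 array, and was 0.37 (p 0.00653) without both, while its dark minus light difference was then -0.19 (p 0.0818). Leaving out 1 dark array left 5, under the 6 taken as the minimum for a tested correlation. Genes called ran from 128 to 422 for the 24 h rhythm, 18 to 133 for time of day, 1 to 26 for dark minus light, 0 to 1 for ZT14 minus ZT10, 0 to 85 for ZT2 minus ZT22 and 0 to 191 for the 12 h component when arrays were left out in turn. Leaving out the dimmest 50% gave 1 gene for dark minus light, and quantile normalization gave 1 for ZT14 minus ZT10. With collection day as a replicate block, 212 genes were called for the 24 h rhythm, 16 for time of day and 0 for ZT2 minus ZT22, and Cirbp kept its call (log2 difference 0.75, adjusted p 0.0361), as Rbm3 kept its lack of one (0.57, 0.09). Causes of these changes were not tested. With 1 pool per collection and 2 or 3 arrays per time, spread between mice within a collection was not measured.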

Other observations

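Temperature-sensing TRP channels of skin and nerve were also listed. Of the 9 measured, 5 passed the filter on dim genes, none was called rhythmic by limma and 1 had an unadjusted p under 0.05, and 0 of 5 is near the 2.13% called over all genes. Trpm3 had the smallest adjusted p, 0.199, with a fitted peak at 11.2 h, followed by Trpc5 (0.314), Trpv4 (0.377) and Trpv3, a heat-activated channel of keratinocytes (0.504). Trpm8, the menthol and cold receptor of sensory nerves, and Trpa1, Trpv1 and Trpm2 were below the filter.

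Genes of brown fat heat production were tested for 8 of 9 measured, with none called by limma and 1 at an unadjusted p under 0.05, again near the 2.13% called over all genes. Ppargc1a, a coactivator of mitochondrial genes, had a log2 difference from peak to trough of 0.48, a fitted peak at 6.64 h and an adjusted p of 0.135, and Cox7a1, a mitochondrial oxidase subunit, had 0.51, 6.32 h and 0.287. Elovl3 and Cidea had adjusted p-values of 0.294 and 0.301. Ucp1, the uncoupling protein of brown fat, was below the filter.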
